A study of Mus musculus with 11 samples.

Results

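A set of 7 genes of the voltage-gated potassium (Kv) channel family, Kcna1, Kcna2, Kcnb2, Kcnc1, Kcnc2, Kcnd2 and Kcnd3, was followed through RNA-seq libraries of the developing mouse retina. They were taken by gene symbol, by a rule that uses no measured value, but the set was drawn up with earlier results of these data known. They are 7 of the 47069 genes in the count tables, and all 7 passed the filter on low counts, which left 18188 genes for testing. The 11 libraries came from C57BL/6 mice and comprised 2 wild-type and 3 Brn3b-Kir2.1 libraries at postnatal day 4 (P4), and 3 wild-type and 3 Brn3b-Kir2.1 libraries at postnatal day 8 (P8). Brn3b-Kir2.1 mice express the human inward rectifier Kir2.1, tagged with the fluorescent protein eYFP, from a transgene behind a CAG promoter and a STOP cassette that Cre removes. Cre was driven by Brn3b, a transcription factor of retinal ganglion cells, so the transgene is restricted to cells that have used this driver. The labels differ on 3 points. The later age is P8 in one field and P11 in the extraction protocol, the controls are wild type in one field and Brn3b-cre in that protocol, and the source field gives retinal ganglion cells where the protocol describes dissociated whole retina with no sorting. The field values for age and genotype are used here, Brn3b-Kir2.1 is shortened to Kir2.1, and the samples are treated as bulk retina, in which fewer cells of a type and less RNA per cell cannot be told apart. The labels do not say that replicates came from separate animals, so p-values measure the spread between these libraries.

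Kv channels open when the membrane is depolarised and let potassium out of the cell, which ends the action potential and sets how soon the next one can follow. Each channel is built of several pore-forming subunits, each of which lines the pore with a signature stretch that forms the selectivity filter. Kcna1 and Kcna2 encode low-threshold Kv1 subunits found on axons, Kcnb2 a delayed rectifier of the Kv2 family, Kcnc1 and Kcnc2 the fast, high-threshold Kv3 subunits of rapidly firing neurons, and Kcnd2 and Kcnd3 the Kv4 subunits of the transient A-type current. In the retina, Kv3 subunits are known from ganglion cells and from starburst amacrine cells, which drive the waves of activity of the early postnatal retina.

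Counts assigned to genes ranged from 9362215 to 12478838 per library. Between 22609 and 24591 genes had a count in 10 libraries, and 31325 in Kir2.1 P8 library 2. Mouse Kcnj2, the gene of Kir2.1, lay between 2.46 and 17.2 CPM (scaled counts per 1000000) in the 11 libraries and between 2.46 and 6.42 CPM in the Kir2.1 P4 libraries, so it does not separate the genotypes, and whether reads of the human transgene were counted on it is not given in the sources used here. The summed level of 14 ganglion cell markers was 1320 to 2014 CPM in wild type and 460 to 1097 CPM in Kir2.1 at P4, and 258 to 496 CPM in all P8 libraries, beside 10 amacrine cell markers at 1639 to 4440 CPM and 12 rod markers at 285 to 7546 CPM. None of these markers was at 0 in all libraries. The wild-type P8 libraries did not form a uniform group. Rod markers summed to 864 CPM in library 1 and 3376 CPM in library 2 but to 7546 CPM in library 3, against 6974 to 7306 CPM in the 3 Kir2.1 P8 libraries. Wild-type P4 library 2 also stood apart from library 1, with 977 against 2694 CPM of 10 markers of dividing cells.

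The coding stretch of the selectivity filter shows how members of the set are related and how far short reads could be told apart. Below, 45 coding bases around it are given for 6 of the genes in the 5′ to 3′ sense of each transcript (GRCm38, GENCODE M21), with the 5 codons of the filter in capitals, found by the signature motif of potassium channel filters on the sense strand of the coding sequence.
Kcna1: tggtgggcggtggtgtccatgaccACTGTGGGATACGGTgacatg
Kcna2: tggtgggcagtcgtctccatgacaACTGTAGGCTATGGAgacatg
Kcnb2: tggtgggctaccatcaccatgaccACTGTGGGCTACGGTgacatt
Kcnc2: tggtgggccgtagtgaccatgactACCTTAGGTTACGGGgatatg
Kcnd2: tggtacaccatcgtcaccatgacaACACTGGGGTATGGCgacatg
Kcnd3: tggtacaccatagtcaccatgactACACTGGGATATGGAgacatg
The windows lie at chr6:126642222-126642266 on the minus strand for Kcna1 (exon 2 of 2), and on the plus strand at chr3:107105200-107105244 for Kcna2 (exon 3 of 3), chr1:15710022-15710066 for Kcnb2 (exon 3 of 3) and chr10:112456205-112456249 for Kcnc2 (exon 3 of 5). In both Kv4 genes an intron divides the filter itself after 8 of its 15 bases. The Kcnd2 window joins chr6:21217382-21217413 in exon 1 to chr6:21714135-21714147 in exon 2 of 6, and the Kcnd3 window joins chr3:105459890-105459921 in exon 2 to chr3:105658611-105658623 in exon 3 of 8. Kcnd2 and Kcnd3 were the most alike, with 41 of 45 bases the same (91.1%), and the lowest identity of any pair was 68.9%. Over whole transcripts no stretch of 50 bases was shared between members. Of the 50-base stretches of each gene, 0% to 0.585% also occurred elsewhere among annotated transcripts, except in Kcnd3 with 1.21%, all of it in the antisense gene Kcnd3os. Whether counting used strand is not given in the sources used here, so the counts of Kcnd3 and Kcnd3os, which had 230 counts in all over 11 libraries against 1128 to 1905 per library for Kcnd3, cannot be fully separated.

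The 7 genes differed widely in level. Per kilobase of exon, the mean level over the 11 libraries was highest for Kcnd3 at 12.5 CPM per kilobase and Kcnc1 at 12.4, followed by Kcna2 at 5.59, Kcna1 at 3.29, Kcnc2 at 2.86, Kcnb2 at 2.56 and Kcnd2 at 1.79. Kcnd3 and Kcnc1 lay at the 79.3 and 79.1 percentile of 18095 tested genes with a length, and Kcnd2 at the 30.8 percentile. Between Kcnc1 and Kcna2 the ranges over the 11 libraries did not overlap, at 8.86 to 20.1 and 3.92 to 7.36 CPM per kilobase. The ranges of the other neighbours in this order overlapped, although Kcna2 was above Kcna1 within each of the 11 libraries. Kcnc1 held 29.0% ± 2.98 (SD, n = 2) and 25.3% ± 1.28 (SD, n = 3) of the summed level of the 7 genes per kilobase in wild type and Kir2.1 at P4, and 33.3% ± 5.08 and 31.7% ± 4.57 (SD, n = 3 each) at P8. The share of Kcnc2 was 9.41% ± 1.59 (SD, n = 2) and 9.26% ± 1.71 (SD, n = 3) in the wild-type and Kir2.1 groups at P4, and 5.03% ± 1.5 (SD, n = 3) and 4.79% ± 0.269 (SD, n = 3) at P8. The summed level of the 7 genes was 33.5 to 36.2 CPM per kilobase in the Kir2.1 P8 libraries, and in wild-type P8 it was 52.1 and 53.9 in libraries 1 and 2 but 33.8 in library 3.

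**Figure D1:**
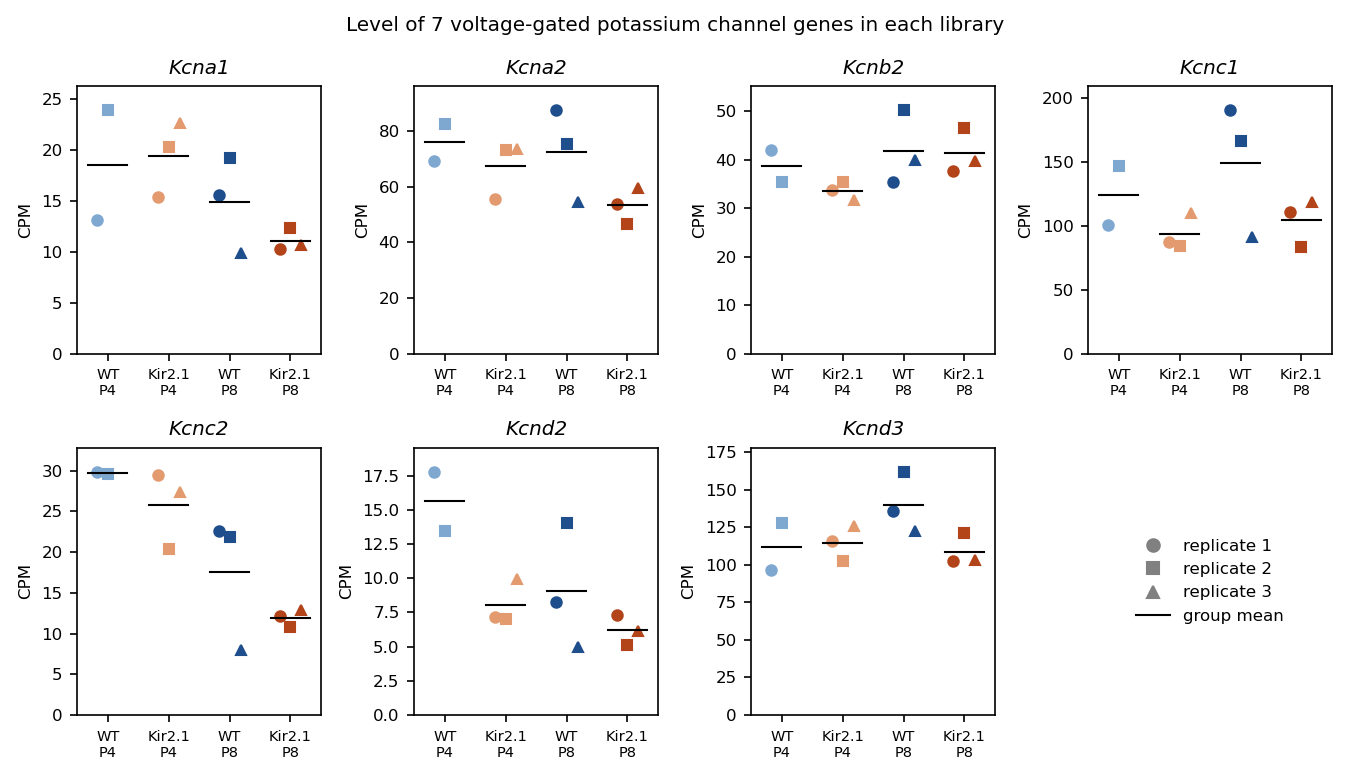
Level of each of the 7 genes in CPM (vertical axes, each from 0) in the 11 libraries, by genotype and age (horizontal axes; symbols mark replicate numbers and lines group means). Kcnc2 is lower at P8 than at P4 within each genotype, and for Kcna2, Kcnc1 and Kcnc2 wild-type P8 library 3 lies among or below the Kir2.1 P8 libraries while libraries 1 and 2 lie above them.

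The genotype comparison asks which transcripts differ when Kir2.1, which dampens firing, is expressed in ganglion cells, and for the 7 channel genes no difference between genotypes passed the test at either age. By edgeR's quasi-likelihood test with Benjamini-Hochberg adjustment over all 18188 genes, 0 of 7 were called at P4 and 0 of 7 at P8, where 0% and 0% of all tested genes were called. Before adjustment, p was under 0.05 for 1 of the 7 at P4 and 2 of the 7 at P8, and for 1314 and 1240 of all genes. The DESeq2 test called 21 genes at P4 and 1 at P8, and none of the 7. At P4 the fitted change was below 0 for 5 of the 7 genes, with a median of -0.20 on the log2 scale beside 0.01 over all genes. At P8 it was below 0 for all 7, with a median of -0.44 beside 0.00 over all genes. At P4, 14 of 14 ganglion cell markers were below 0 with a median of -0.94, as were 5 of 6 starburst amacrine cell markers (median -2.54), 9 of 10 bipolar cell markers (-2.03) and 9 of 10 vascular markers (-0.83). All 5 horizontal cell markers were also below 0 (-0.60). Markers of dividing cells and microglia were above 0, 10 of 10 each, with medians of 0.31 and 0.33. Wild-type P4 library 2 stood apart in several of these lists. Its bipolar cell markers summed to 597 CPM, against 287 CPM in wild-type P4 library 1 and 277 to 316 CPM in Kir2.1 P4, and its horizontal cell markers to 663 CPM, against 342 CPM and 324 to 375 CPM. Its markers of dividing cells summed to 977 CPM, against 2694 CPM in library 1 and 2206 to 2790 CPM in Kir2.1 P4, and its microglia markers to 251 CPM, against 436 CPM and 327 to 529 CPM. For these 4 lists the sum in wild-type P4 library 1 lay within the Kir2.1 P4 range. The horizontal sum followed Prox1, at 540 CPM in wild-type P4 library 2 and 195 CPM in library 1. Calb1 was also higher in library 2, while Lhx1, Onecut1 and Onecut2 were lower. Starburst markers summed to 118 and 149 CPM in wild-type P4 and 92.6 to 104 CPM in Kir2.1 P4. Chat was at 2.05 and 10.2 CPM against 0 to 1.67 CPM. Vascular markers, with Kdr the largest part, summed to 582 and 462 CPM in wild-type P4 and 450 to 754 CPM in Kir2.1 P4. At P8, rod markers, 12 of 12 above 0 with a median of 0.88, and amacrine cell markers, 10 of 10 below 0 with a median of -0.54, moved with the comparison. Also below 0 were 6 of 6 starburst amacrine cell markers (median -0.34), 4 of 4 astrocyte markers (-0.30) and 13 of 14 ganglion cell markers (-0.21). Above 0 were the 6 tested pigment epithelium markers (median 2.56), 9 of 10 vascular markers (0.43), 10 of 10 microglia markers (0.42), 8 of 10 markers of dividing cells (0.32) and 9 of 10 bipolar cell markers (0.19). The pigment epithelium markers summed to 31.6 CPM in Kir2.1 P8 library 2 and to 4.58 to 7.78 CPM in the other 10 libraries, and the erythrocyte markers to 19.3 CPM in that library. Microglia markers summed to 386, 118 and 204.5 CPM in Kir2.1 P8 libraries 1, 2 and 3, against 114 to 213 CPM in wild-type P8. Vascular markers summed to 592, 388 and 361 CPM, against 360 to 535 CPM. For both lists, libraries 2 and 3 of Kir2.1 P8 lay within the wild-type range. None of these markers was called, and their part in the channel values was not tested.

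Of the Kv1 genes, Kcna2 (ENSMUSG00000040724, chr3:107101146-107115005) was the more abundant. It measured 69.5 and 82.8 CPM in wild-type P4 and 55.5, 73.3 and 73.7 CPM in Kir2.1 P4. At P8 it measured 87.6, 75.5 and 54.4 CPM in wild type and 53.9, 46.7 and 59.7 CPM in Kir2.1. The groups overlapped at both ages, at P8 only through wild-type library 3, the lowest of its group. The fitted Kcna2 difference at P8 was -0.44 ± 0.18 (log2, SE; 95% interval -0.83 to -0.05; edgeR adjusted p = 0.6994), and at P4 it was -0.17 ± 0.20 (edgeR adjusted p = 0.8581). Kcna1 (ENSMUSG00000047976, chr6:126640397-126646384, minus strand) measured 13.1 and 23.9 CPM in wild-type P4 and 15.3, 20.3 and 22.6 CPM in Kir2.1 P4. At P8 it measured 15.6, 19.1 and 9.84 CPM in wild type against 10.3, 12.3 and 10.6 CPM in Kir2.1. The 2 wild-type P4 libraries spanned all 3 Kir2.1 P4 libraries, and at P8 the lowest wild-type library lay below all Kir2.1 libraries. The Kcna1 difference was 0.07 ± 0.31 at P4 and -0.42 ± 0.28 at P8 (log2, SE; edgeR adjusted p = 0.9651 and 0.7292).

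Kcnb2 (ENSMUSG00000092083, chr1:15287254-15723750), the delayed rectifier of the set, had the smallest spread of the 7 genes over the 11 libraries, a root mean square of 0.19 on the log2 scale. It measured 41.9 and 35.4 CPM in wild-type P4, 33.8, 35.5 and 31.6 CPM in Kir2.1 P4, 35.5, 50.2 and 39.9 CPM in wild-type P8, and 37.6, 46.4 and 39.8 CPM in Kir2.1 P8. At P8 the Kir2.1 values lay inside the wild-type range, and the difference was -0.02 ± 0.15 (log2, SE; 95% interval from -0.35 to 0.31; edgeR adjusted p = 0.9843). At P4 it was -0.20 ± 0.17 (log2, SE; edgeR adjusted p = 0.8018).

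The Kv3 gene Kcnc1 (ENSMUSG00000058975, chr7:46396497-46438704) measured 101 and 147 CPM in wild-type P4 against 87.2, 83.9 and 110 CPM in Kir2.1 P4. At P8 it measured 190, 166 and 91.4 CPM in wild type against 111, 83.8 and 119 CPM in Kir2.1. Wild-type P8 libraries 1 and 2 were above every Kir2.1 library of either age, and library 3 lay among the Kir2.1 P8 libraries. The Kcnc1 difference was -0.51 ± 0.25 at P8 (log2, SE; 95% interval -1.05 to 0.03; edgeR adjusted p = 0.6994) and -0.40 ± 0.27 at P4 (edgeR adjusted p = 0.7603). Its partner Kcnc2 (ENSMUSG00000035681, chr10:112271121-112467024) measured 29.8 and 29.5 CPM in wild-type P4 and 29.4, 20.4 and 27.4 CPM in Kir2.1 P4. At P8 it measured 22.6, 21.9 and 7.97 CPM in wild type, the last of these the lowest of all 11 libraries, and 12.1, 10.8 and 12.9 CPM in Kir2.1. The Kcnc2 libraries did not overlap between genotypes at P4, with 29.5 CPM in the lower wild-type library and 29.4 CPM in the highest Kir2.1 library, and they overlapped at P8. The Kcnc2 difference was -0.21 ± 0.34 at P4 and -0.55 ± 0.31 at P8 (log2, SE; edgeR adjusted p = 0.8987 and 0.7006).

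Of the Kv4 genes, Kcnd2 (ENSMUSG00000060882, chr6:21215503-21729805), the least abundant of the 7 per kilobase, measured 17.8 and 13.5 CPM in wild-type P4 against 7.16, 6.98 and 9.97 CPM in Kir2.1 P4, with no overlap. This was the largest fitted genotype difference among the 7 genes at either age, -0.96 ± 0.37 (log2, SE; 95% interval -1.76 to -0.16; unadjusted p = 0.02263, edgeR adjusted p = 0.6774). It was -0.75 without wild-type P4 library 1 and -1.14 without library 2, and the P4 difference of Kcnc1 was -0.65 and -0.11 in the same fits. In each of these the wild-type arm is 1 library, which is assumed to vary like the libraries of the other groups. At P8 Kcnd2 measured 8.25, 14.0 and 4.96 CPM in wild type, from above to below the 7.29, 5.11 and 6.16 CPM of Kir2.1, and the difference was -0.55 ± 0.34 (log2, SE; edgeR adjusted p = 0.712). Kcnd3 (ENSMUSG00000040896, chr3:105452330-105674002) measured 96.4 and 128 CPM in wild-type P4 and 116, 103 and 126 CPM in Kir2.1 P4, all 3 within the wild-type range. At P8 it measured 136, 162 and 122 CPM in wild type against 102, 121 and 103 CPM in Kir2.1. The P8 groups of Kcnd3 did not overlap, with the lowest wild-type library at 122 CPM and the highest Kir2.1 library at 121 CPM. The Kcnd3 difference was -0.36 ± 0.14 at P8 (log2, SE; 95% interval -0.68 to -0.05; unadjusted p = 0.02697, edgeR adjusted p = 0.6994) and 0.03 ± 0.16 at P4 (edgeR adjusted p = 0.9697). In all, 2 of 7 genes had wild-type libraries above all Kir2.1 libraries at P4, where 14.4% of all genes did, and 1 of 7 at P8, where 5.11% did.

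**Figure D2:**
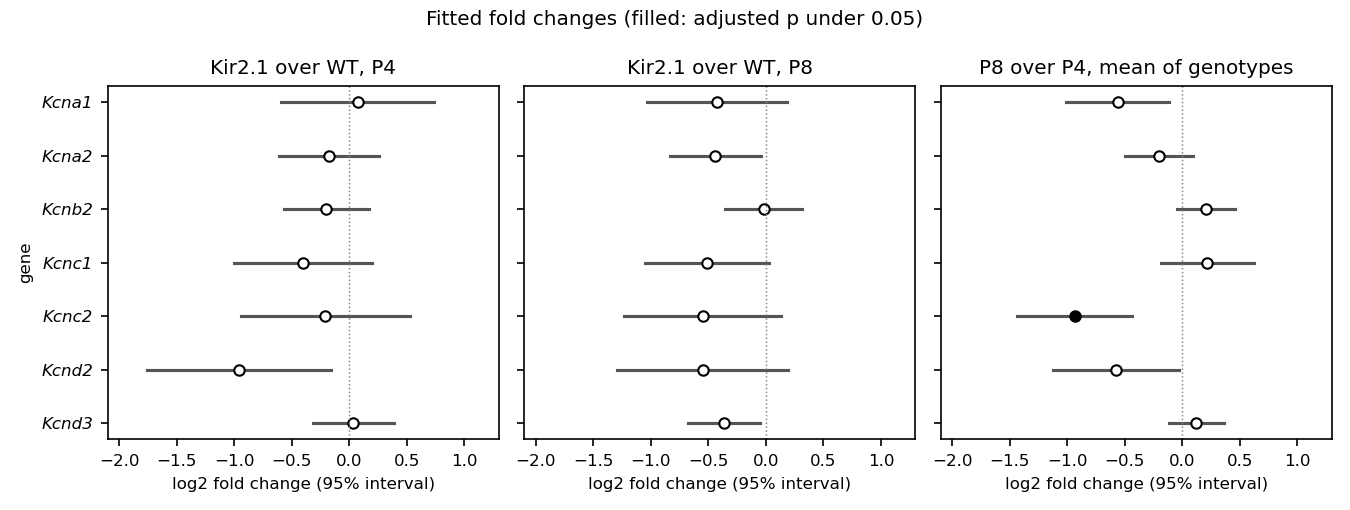
Fitted log2 fold change (horizontal axes; bars are 95% intervals) of the 7 genes (vertical axis) for Kir2.1 over wild type at P4 and at P8 and for P8 over P4 averaged over genotypes. Filled points have an adjusted p under 0.05, which holds for Kcnc2 in the age comparison and for no genotype difference.

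The genotype difference did not itself differ between ages by the test. The interaction of age and genotype, which uses the same libraries as both comparisons, called 0 of 7 genes where 0% of all genes were called (562 genes at an unadjusted p under 0.05, edgeR). It ranged from -0.50 ± 0.42 for Kcna1 to 0.41 ± 0.50 for Kcnd2 (log2, SE; edgeR adjusted p = 0.9998 for each of the 7).

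The size of the P8 differences moved with single libraries. Without wild-type P8 library 3 the difference grew from -0.44 to -0.61 for Kcna2, from -0.51 to -0.77 for Kcnc1, from -0.55 to -0.90 for Kcnc2, from -0.55 to -0.84 for Kcnd2 and from -0.42 to -0.65 for Kcna1 on the log2 scale, and edgeR called 219 of 18032 genes (1.21%), among them Kcnc2 (edgeR adjusted p = 0.04408). Kcnc1 and Kcna2 then missed the threshold (edgeR adjusted p = 0.06144 and 0.06733). Leaving out wild-type P8 library 1 instead gave -0.30 for Kcnc1, -0.32 for Kcnc2 and -0.28 for Kcna2, and leaving out library 2 gave -0.09 for Kcnd2 and -0.20 for Kcna1. Without Kir2.1 P8 library 2, the lowest of its group for Kcna2, Kcnc1 and Kcnc2, the differences were -0.35, -0.38 and -0.48.

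**Figure D3:**
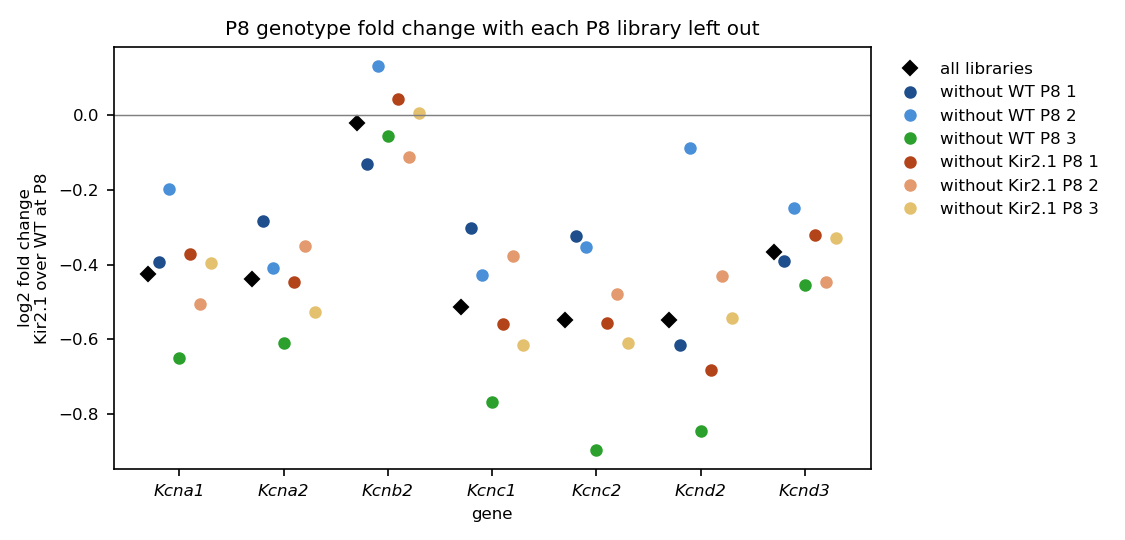
Genotype difference at P8 on the log2 scale, Kir2.1 over wild type (vertical axis) for the 7 genes (horizontal axis), with all libraries (diamonds) and with each of the 6 P8 libraries left out (circles). Leaving out wild-type library 3 moves Kcnc2 from -0.55 to -0.90 and Kcnc1 from -0.51 to -0.77.

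The authors' deposited table for P8 called 3 of the 7 genes lower in Kir2.1, where 7.27% of the genes with an adjusted p in that table (974 of 13396) were called in either direction. In the authors' deposited table the log2 fold change was -0.77 for Kcnc1 (adjusted p = 0.002782), -0.63 for Kcna2 (adjusted p = 0.02052) and -0.89 for Kcnc2 (adjusted p = 0.02238). Kcnd3 in the authors' deposited table was at -0.47 (adjusted p = 0.06225), Kcnd2 at -0.87 (adjusted p = 0.1802), Kcna1 at -0.66 (adjusted p = 0.2294) and Kcnb2 at -0.06 (adjusted p = 0.948). A DESeq2 test of the 6 P8 libraries called 3 genes and none of the 7, whereas a DESeq2 test of the 5 libraries without wild-type library 3 called 1083 of the 11520 genes to which it gave an adjusted p (9.4%) and the same 3 members, Kcnc1 at -0.77 (DESeq2 adjusted p = 0.002225), Kcna2 at -0.62 (DESeq2 adjusted p = 0.02358) and Kcnc2 at -0.90 (DESeq2 adjusted p = 0.01775). Which libraries entered the authors' table is not given in the sources used here. For P4 the authors' deposited table called none of the 7 among 2.27% of its genes (314 of 13830), with Kcnc1 closest at -0.53 (adjusted p = 0.09864).

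The level of the Kv3 genes varied across the P8 libraries together with cell type markers. The 10 amacrine cell markers summed to 4440 and 3357 CPM in wild-type P8 libraries 1 and 2, where Kcnc1 was highest, to 1971 CPM in wild-type P8 library 3, and to 2349, 1639 and 2550 CPM in the Kir2.1 P8 libraries. Set against this sum, a ratio chosen after the values were seen, Kcnc1 measured 42.9, 49.6 and 46.4 CPM per 1000 CPM of amacrine markers in the 3 wild-type P8 libraries and 47.3, 51.1 and 46.7 in the 3 Kir2.1 P8 libraries. The ranges of this ratio overlapped, at 46.3 ± 3.33 and 48.4 ± 2.41 (SD, n = 3 each), while at P4 it was 32.4 and 40.2 in wild type and 26.1 to 30.9 in Kir2.1. Kcnc2 measured 4.05 to 6.51 in wild-type P8 and 5.08 to 6.56 in Kir2.1 P8 on the same ratio, against 8.08 and 9.58 in wild-type P4 and 6.36 to 8.97 in Kir2.1 P4. The ratio of Kcna2 was 19.7 to 27.6 in wild-type P8 and 23.0 to 28.5 in Kir2.1 P8. For Kcnb2 and Kcnd3 the ratio set the wild-type P8 libraries further apart than the CPM did, with 7.99 to 20.2 for Kcnb2 (35.5 to 50.2 CPM) and 30.6 to 62.1 for Kcnd3 (122 to 162 CPM). For Kcna1 the ratio was 3.51 to 5.70 in those libraries (9.84 to 19.1 CPM) and for Kcnd2 1.86 to 4.18 (4.96 to 14.0 CPM). In Kir2.1 P8 it was 15.6 to 28.3 for Kcnb2, 40.5 to 73.8 for Kcnd3, 4.165 to 7.51 for Kcna1 and 2.415 to 3.12 for Kcnd2. Each range overlapped that of wild-type P8, also for Kcnd3, whose CPM did not overlap. The mean ratio was above that of wild-type P8 for each of these genes. Tfap2b and Pax6 made up 32.7% and 28.8% of the amacrine sum. The 6 starburst amacrine cell markers summed to 221 and 204 CPM in wild-type P8 libraries 1 and 2, 44.9 CPM in library 3, and 161, 61.9 and 139 CPM in Kir2.1 P8. Among these, Chat, which encodes the enzyme that makes acetylcholine and defines starburst cells, measured 19.1, 18.4 and 0.163 CPM in the 3 wild-type P8 libraries and was listed at 0 in Kir2.1 P4 library 2. The part of cell composition in the channel values was not tested.

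**Figure D4:**
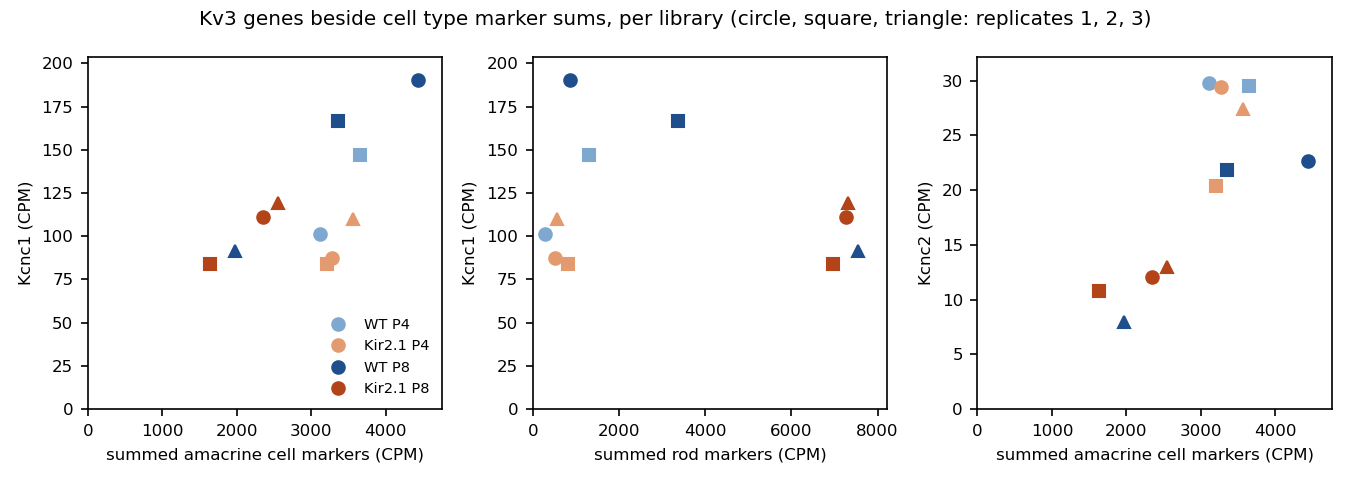
Kcnc1 or Kcnc2 (vertical axes, CPM) against the summed level of 10 amacrine cell or 12 rod markers (horizontal axes, CPM) in each of the 11 libraries, coloured by group. Wild-type P8 library 3 (triangle, dark blue) has 1971 CPM of amacrine and 7546 CPM of rod markers. It lies beside the Kir2.1 P8 libraries in the Kcnc1 panels and below them for Kcnc2 (7.97 against 10.8 to 12.9 CPM).

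Between P4 and P8, Kcnc2 fell and none of the other 6 genes passed the test. Averaged over genotypes the change of Kcnc2 was -0.94 ± 0.23 (log2, SE; 95% interval -1.44 to -0.44; edgeR adjusted p = 0.01173), a P8 level 0.523 times that at P4. This was 1 of 7 genes in a comparison that called 22.8% of all genes, 10.7% higher and 12.1% lower. Kcnc2 kept its call in each of the 11 fits that left out 1 library, between -1.07 and -0.76, and without both wild-type P4 library 2 and wild-type P8 library 1 it was -1.08 (edgeR adjusted p = 0.01001). Within genotypes it was -1.11 ± 0.31 in Kir2.1 (log2, SE; edgeR adjusted p = 0.03131; 16.7% of genes called) and -0.77 ± 0.34 in wild type (edgeR adjusted p = 0.2352; 4.39% of genes called). In both genotypes every P8 library was below every P4 library, which held for 16.9% of all genes in wild type and 18.7% in Kir2.1. The call in Kir2.1 alone was lost when any of Kir2.1 P4 libraries 1 and 3 or Kir2.1 P8 libraries 1, 2 and 3 was left out, while the fold change stayed between -1.17 and -1.02 in these fits (edgeR adjusted p = 0.07565 to 0.1016). In wild type, leaving out P8 library 3 brought the Kcnc2 change to -0.42. Both age comparisons share libraries with the genotype comparisons.

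Kcna1 came next in the averaged comparison at -0.56 ± 0.21 (log2, SE; edgeR adjusted p = 0.07048), and in Kir2.1 alone it was -0.81 ± 0.28 (edgeR adjusted p = 0.06897) with no overlap between ages. Kcnd2 was at -0.58 ± 0.25 (log2, SE; edgeR adjusted p = 0.1222) and Kcna2 at -0.20 ± 0.13 (edgeR adjusted p = 0.314). On the other side of 0, Kcnb2 was at 0.21 ± 0.11 (log2, SE; edgeR adjusted p = 0.2272), Kcnc1 at 0.21 ± 0.19 (edgeR adjusted p = 0.4509) and Kcnd3 at 0.12 ± 0.11 (edgeR adjusted p = 0.4687). Kcnb2 was higher in all P8 than in all P4 libraries of Kir2.1, as were 19.4% of all genes, and overlapped in wild type. The median over the 7 genes was -0.20 beside 0.02 over all genes. In the same comparison 12 of 12 rod markers (median 2.93) and 10 of 10 bipolar cell markers (3.75) rose. All 10 markers of dividing cells (-4.03), all 14 ganglion cell markers (-1.96) and 7 of 10 microglia markers (-0.96) fell. Of 10 amacrine cell markers 1 rose and 4 fell, with a median of -0.26. Of 6 starburst amacrine cell markers 1 rose and 1 fell, and 5 were above 0 with a median of 1.67, on the other side of 0 from Kcnc2. The part of these marker changes in the Kcnc2 value was not tested.

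Of the other genes of the Kv family most did not pass the test for age, and those that did lay on both sides of 0. Of 23 other pore-forming subunits, 20 were tested, 4 rose and 4 fell, with a median of 0.03, where 10.7% of all genes rose and 12.1% fell. Neither this list nor the other lists was tested as a group. Those that rose included the ether-a-go-go family genes Kcnh1 at 1.84 ± 0.35 and Kcnh6 at 0.74 ± 0.20 (log2, SE; edgeR adjusted p = 0.002494 and 0.02045). Those that fell were the Kv3 gene Kcnc4 at -1.06 ± 0.28 (log2, SE; edgeR adjusted p = 0.01686), the M-current subunit gene Kcnq3 at -1.07, and Kcnh4 at -1.96 and Kcnh8 at -0.91. Of the Kv3 genes described here, Kcnc2 and Kcnc4 were lower by the test and Kcnc1 was not called.

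Of the 10 electrically silent subunits, which join other Kv subunits and form no channel alone, all 10 were tested, 2 rose and none fell, with a median of 0.36, beside the same 10.7% and 12.1% of all genes. Kcnv2, a partner of Kv2 subunits in photoreceptors, was at 2.78 ± 0.44 (log2, SE; edgeR adjusted p = 0.000855), going from 10.3 to 36.8 CPM over the P4 libraries to 29.3, 93.8 and 190 CPM in wild-type P8 and 186 to 201 CPM in Kir2.1 P8. Kcng4 was at 2.19 ± 0.70 (log2, SE; edgeR adjusted p = 0.04231).

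Among 20 auxiliary and clustering proteins 18 were tested, 4 rose and 2 fell, with a median of 0.23, again beside 10.7% and 12.1% of all genes. Kcnab2, a cytoplasmic beta subunit of Kv1 channels, rose by 1.17 ± 0.18 and Dlg4, the scaffold protein PSD-95, by 0.63 ± 0.11 (log2, SE; edgeR adjusted p = 0.000699 and 0.001377). Kcnip4, which encodes a calcium-binding partner of Kv4 subunits, rose by 1.16 and Kcne2 by 1.68. Kcnip1, another partner of Kv4 subunits, was at -0.73 and Cntn2, an adhesion protein that gathers Kv1 channels on axons, at -0.97 (edgeR adjusted p = 0.018 and 0.002813). By level per kilobase the leading genes of the 3 lists included Kcna5 at 20.5 and Kcnh2 at 12.7 CPM per kilobase, Kcnv2 at 17.7, Kcnf1 at 1.58 and Kcns2 at 1.25, and Dlg4 at 21.4, Kcnab2 at 18.1 and Adam22 at 13.0. None of the tested genes of these 3 lists was called for genotype at either age. Their median genotype differences at P8 were -0.35, -0.41 and -0.29 (log2) for the pore-forming, silent and auxiliary lists, beside -0.44 for the 7 genes and 0.00 for all genes.

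**Figure D5:**
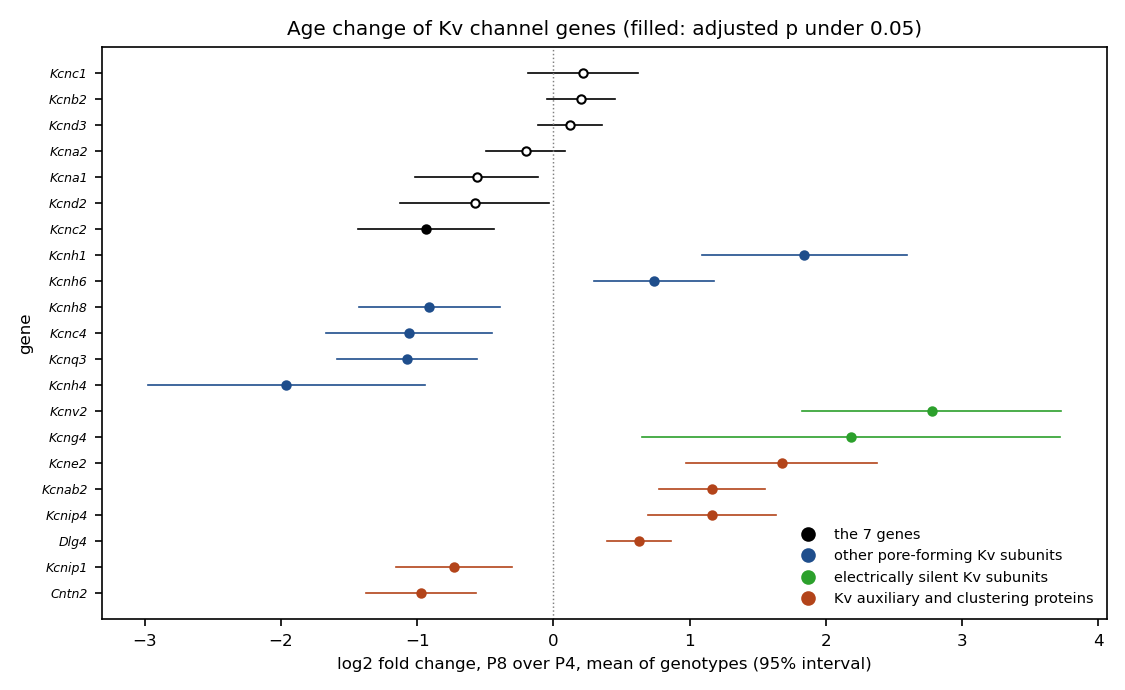
Log2 fold change of P8 over P4 averaged over genotypes (horizontal axis; bars are 95% intervals) for the 7 genes and for genes of 3 further lists that passed the test and are described here (vertical axis). Filled points have an adjusted p under 0.05; Kcnc2 is the filled point among the 7, and the filled points run from Kcnh4 at -1.96 to Kcnv2 at 2.78.

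The profiles of the 7 genes over the 11 libraries were compared by the root mean square difference of their log2 CPM, each centred on its own mean, among 15924 genes. Nearest to Kcnc1 was St8sia1 at 0.0802, where the own spread of Kcnc1 was 0.388. Nearest to Kcnc2, with an own spread of 0.639, were the synaptotagmin gene Syt5 at 0.124 and Lrrc7 at 0.167. Nearest to Kcna2 were Adam22, a protein that binds Kv1 channel complexes, at 0.0845 and Gm5124 at 0.0852. Kcna1 was nearest to Tnc at 0.135 and Fndc1 at 0.162, Kcnb2 to Gtf2e1 at 0.0903 and Prune1 at 0.108, Kcnd2 to Capn5 at 0.171 and Gpr153 at 0.189, and Kcnd3 to Speg and Ankrd24 at 0.119 each. No member was among the 2 genes nearest to another. Within the set the nearest pair was Kcnb2 and Kcnd3 at 0.244 and the farthest Kcnb2 and Kcnc2 at 0.733, and the 2 Kv3 genes were 0.637 apart. Kcnb2 and Kcnd3 had the smallest own spreads, 0.19 and 0.209, and their distance exceeded both, so it does not show a shared profile. Kcna2 and Kcnc1, with own spreads of 0.279 and 0.388, were 0.273 apart.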

How the data were processed

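RNA-seq was done on retinas of the 4 groups, and group, age and replicate came from sample titles. The authors deposited whole-number counts per Ensembl gene for each library. Per the submitters' processing notes, cutadapt 1.18, STAR 2.5.0c, SAMtools 1.9, bedtools 2.26.0, HTSeq 0.6.1 and DESeq2 were used with build mm10; strand and annotation are not given in the sources used here. Records assigned to no gene, of any kind, were left out. They made up 74.6% to 79.8% of all counted records, which is not a share of reads. In wild-type P4 library 1, 11566896 counts lay in genes, where the labels state 20336665 reads. The authors also deposited 1 comparison table per age, whose headers name a mean normalized signal, log2 fold changes and their standard errors, a score (the test statistic), and p-values before and after adjustment.

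The count model was edgeR 4.0.16 (R 4.3.3). After filterByExpr 18188 genes remained, scaled by TMM (factors 0.964 to 1.05). A quasi-likelihood model of 4 group means was fitted to all 11 libraries, and the scripts were tested on simulated data. p-values were adjusted by Benjamini-Hochberg over all genes, with a threshold of 0.05, and all intervals are 95% intervals of the fit. CPM values are TMM-scaled, and the depth of 9362215 to 12478838 gene counts put at least 49 counts behind each value of the 7 genes. Symbols were found for 46488 of 47069 IDs, and coordinates and exon lengths came from GENCODE M21 (GRCm38). Named are the 7 genes, genes of 3 further Kv lists called for age or genotype or among the 3 highest per kilobase of each list, and the 2 genes most like each member with a mean of at least 1 CPM and a log2 prior count of 2. Kcnj2, the marker genes and Chat are named besides, and a few items that the rule would name are not reported here. The members, lists and tests were chosen with earlier results of these data known.

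The alternatives were DESeq2 1.42.0 (size factors, and test), a filter at a mean of 1 CPM or none, limma 3.58.1 voom weighting samples by quality, leaving out genes that exceed 1% of any library, only the groups compared, a replicate block, and each library left out. Fits without wild-type P4 library 2 and wild-type P8 library 1 together, and the DESeq2 tests of 6 or 5 P8 libraries, were added after seeing the data.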

Additional observations from a re-analysis of the deposited data

How the results depend on the processing

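No member was called for genotype at P4 or for the interaction under any alternative. Of 840 fold changes of the members under alternatives, 799 kept their direction and their side of the threshold. This count includes fits that left out a library outside the comparison, which hardly moved the fold change. Kcnd2 at P4, for example, stayed between -0.957 and -0.951 when any 1 P8 library was left out. The count of genes called for genotype went from 0 to 21 with the DESeq2 test and 339 with no filter at P4, and at P8 to 1 and 447, and to 3 and 1083 with DESeq2 on 6 and 5 P8 libraries; the interaction gave 136 with no filter. Members called at P8 went from 0 to 1 with no filter (Kcnc1, edgeR adjusted p = 0.04399; 1.22% of all genes) and 3 with 5 P8 libraries (9.4%). For age in wild type, 798 genes became 1444 with the DESeq2 test, 2058 with no filter (5.63%; 1 member, Kcnc2), 113 with only the groups compared and 1845 without wild-type P4 library 2 and wild-type P8 library 1, where Kcna1 reversed from -0.32 to 0.13. For age in Kir2.1, members called went from 1 to 2, Kcna1 being added, with the DESeq2 test, voom, no filter, only the groups compared, and without those 2 libraries, where 20.2%, 23.6%, 10%, 25.8% and 18.2% of all genes were called; averaged over genotypes they went from 1 to 2 with the DESeq2 test and with no filter (23% and 12.7% of all genes). The cause of these shifts was not tested.

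Over the 11 fits that left out 1 library, genes called ranged from 0 to 6 for genotype at P4, 0 to 219 at P8 (members 0 to 1), 0 to 1 for the interaction, 163 to 1339 for age in wild type, 1764 to 3676 in Kir2.1 (members 0 to 2) and 2133 to 4417 averaged (members 1 to 3, Kcna1 and Kcnd2 being added without wild-type P8 library 2). The 6 calls at P4 and the 163 and 1339 for age in wild type come from fits in which 1 wild-type P4 library is left and is assumed to vary like the other groups. Reversals of the fold change occurred over all 11 fits that left out 1 library for Kcna1 (-0.30 to 0.57) and Kcnd3 (-0.16 to 0.25) at P4, Kcnb2 at P8 (-0.13 to 0.13), Kcnc1 in the interaction (-0.41 to 0.14), and Kcna1 (-0.69 to 0.18), Kcna2 (-0.24 to 0.10) and Kcnb2 (-0.036 to 0.24) for age in wild type. Whether replicate numbers pair the libraries was not settled. Of 15 same-number pairs, 3 had a correlation of deviations over 0.1. The range was -0.08 to 0.14 in all, against -0.147 to 0.143 for other pairs, but 7 of 11 libraries correlated best with their own number. With the replicate block, 0 genes were called for genotype at either age and for the interaction, 558 for age in wild type, 2928 in Kir2.1 and 3721 averaged, and the block changed no member's call. Depth limits Kcnd2 most, with 49 to 208 counts per library.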
